A study of Arabidopsis thaliana with 18 samples.

Results

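STZ (AT1G27730, also called ZAT10) and WRKY53 (AT4G23810) are 2 transcription factor genes of Arabidopsis thaliana that respond to stress, and their transcripts were followed in roots and leaves through osmotic stress and its removal. Both were chosen by name from the 13286 genes that the annotation used pairs with a probe set of their own, and each had 1. Plants of the wild-type accession Columbia-0 were grown hydroponically, and total RNA was measured on 18 Affymetrix ATH1 arrays, in 6 groups of 3 biological replicates. The day 11 groups of roots and leaves carried the osmotic label and were taken as the plants that, after stress, went back to basal medium for 1 day. The osmotic groups had received 0.3 M mannitol in the medium for 3 h in the light, and the mock groups had the same basal medium with no mannitol named. Osmotic and mock plants carry the label of day 10, so a difference of day 11 from either also holds a day of time and the transfer between media. The treatment text gives an older plant age than these days, so what the days count from is not settled here. The labels do not give the hour of sampling of mock plants.

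STZ is a C2H2 zinc finger protein with an EAR motif, a short stretch through which plant repressors recruit co-repressors. It is induced by salt, cold, drought, wounding and high light, and it was first isolated because it raised the salt tolerance of yeast. WRKY53 belongs to the WRKY family, whose proteins bind the W box of promoters, and is best known as an early regulator of leaf senescence that responds to hydrogen peroxide and pathogens.

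The deposited expression values were taken as log2 from their range of 2.38 to 13.86, so that a difference of 1 is a doubling. All arrays had medians between 6.55 and 6.69. The 36 values of both genes lay between 8.18 and 11.84, so that none was near the dim end of an array. Changes are differences of group means ± SE, estimated with limma over 22746 probe sets on all 18 arrays, and a change was called where the Benjamini-Hochberg adjusted p over all probe sets was below 0.05. Organ labels were checked against marker genes. The mean of 3 measured leaf markers (of 6 listed) was 4.24 to 5.17 in root arrays and 11.97 to 12.78 in leaf arrays. In leaf arrays it was 12.32 to 12.58 at day 11, 11.97 to 12.31 under mannitol and 12.60 to 12.78 in mock leaves. In root arrays it was 4.49 to 4.94 at day 11, 4.24 to 4.47 under mannitol and 4.75 to 5.17 in mock roots. The part of these shifts in the results below was not tested. The mean of the 2 measured root markers (of 6 listed) was 8.59 to 9.14 in root arrays and 4.36 to 4.73 in leaf arrays. As these are whole organs, fewer cells of a type and less transcript per cell cannot be told apart.

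In roots, STZ was high under mannitol and came down after its removal. Its values were 8.79, 8.86 and 9.23 in day 11 roots, 10.05, 10.36 and 10.26 in osmotic roots, and 8.23, 8.57 and 8.83 in mock roots. Every osmotic array lay above every day 11 and every mock array, while day 11 and mock arrays overlapped narrowly. STZ rose 3.21-fold in osmotic against mock roots (1.68 ± 0.19, adjusted p = 2.4e-06), in a comparison that called 24.3% of all probe sets in either direction. It fell by 1.26 ± 0.19 in day 11 against osmotic roots (adjusted p = 8.7e-05; 19% of probe sets called). Day 11 roots stood at 0.42 ± 0.19 above mock roots (95% interval 0.02 to 0.82), which did not pass after adjustment (adjusted p = 0.2; 7.65% called).

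In leaves, STZ rose with mannitol and was still high at day 11. The values were 11.33, 11.84 and 11.40 in day 11 leaves, 10.87, 11.25 and 11.57 in osmotic leaves, and 9.99, 9.99 and 10.36 in mock leaves. Day 11 and osmotic arrays overlapped, and both groups lay wholly above the mock arrays. STZ rose 2.18-fold in osmotic against mock leaves (1.12 ± 0.19, adjusted p = 0.00042; 20.6% of probe sets called). The step from osmotic to day 11 leaves was 0.29 ± 0.19 with an interval of -0.11 to 0.69 and was not called (adjusted p = 0.35; 17.1% called). Against mock, STZ rose 2.66-fold in day 11 leaves (1.41 ± 0.19, adjusted p = 0.0011). That comparison called 1.09% of all probe sets, and the difference of STZ was the 46th largest rise among the 22746. All these calls of STZ held without any single array, arrays being numbered below by their replicate.

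**Figure D1:**
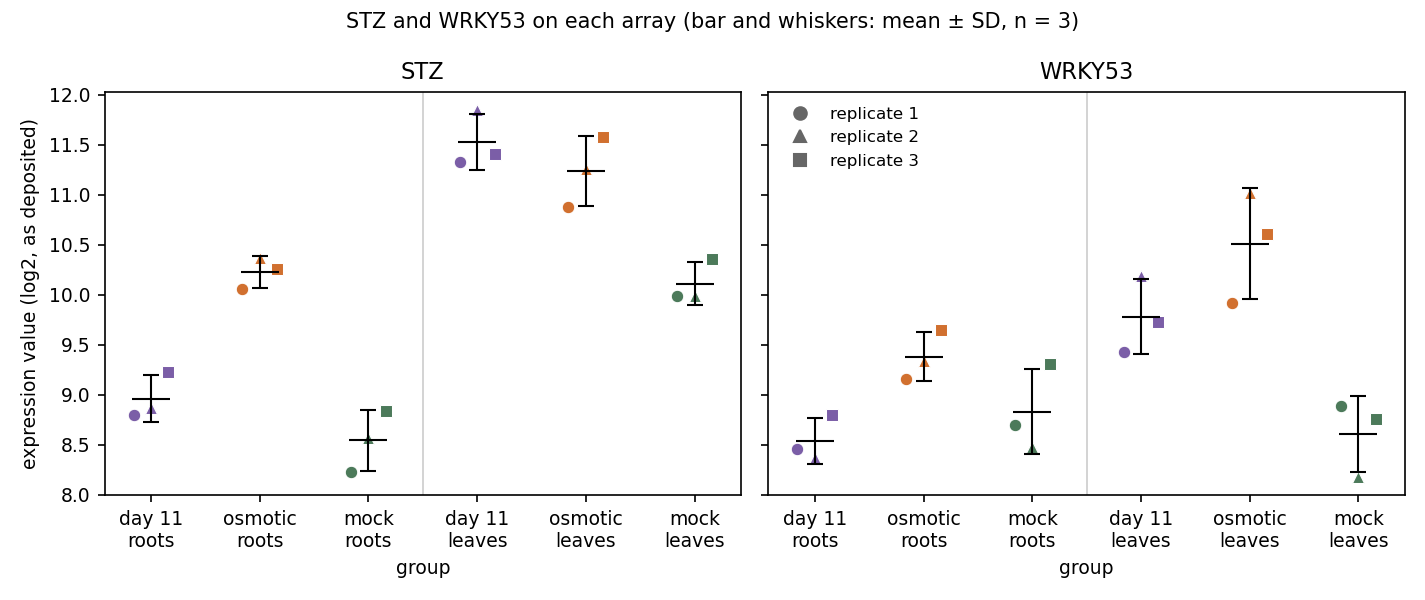
Deposited log2 expression values of STZ (left) and WRKY53 (right) on each of 18 arrays, by group along the horizontal axis, with symbols for the replicate number and bars for the mean ± SD of 3 arrays. Against mock arrays of the same organ, STZ is high in osmotic roots and in both osmotic and day 11 leaves, while osmotic roots and mock leaves overlap. The highest mean of WRKY53 is that of osmotic leaves, 10.51, with 8.61 in mock leaves, and its day 11 and osmotic leaf arrays overlap.

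WRKY53 responded in leaves. Its values were 9.43, 10.18 and 9.73 in day 11 leaves, 9.91, 11.01 and 10.60 in osmotic leaves, and 8.89, 8.18 and 8.76 in mock leaves. Osmotic and day 11 arrays overlapped, and all 6 lay above the mock arrays. WRKY53 rose 3.74-fold in osmotic against mock leaves (1.90 ± 0.27, adjusted p = 7.8e-05), the 126th largest rise of that comparison. In day 11 leaves it rose 2.26-fold against mock (1.17 ± 0.27, adjusted p = 0.039), the 82nd largest rise there. The step from osmotic to day 11 leaves was -0.73 ± 0.27 (95% interval -1.29 to -0.17, adjusted p = 0.071). Both day 11 results lay close to the threshold and moved with single arrays. The rise of day 11 over mock leaves missed it without mock leaf array 1, 2 or 3 (adjusted p = 0.059, 0.1 and 0.098), day 11 leaf array 2 or 3 (0.13 and 0.091), mock root array 1 (0.055) or day 11 root array 1 or 2 (0.053 and 0.052), and the step passed without osmotic leaf array 1 (0.011) or day 11 leaf array 2 (0.041).

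The differences of WRKY53 from mock were smaller in roots than in leaves. The values were 8.46, 8.36 and 8.80 in day 11 roots, 9.15, 9.34 and 9.65 in osmotic roots, and 8.70, 8.48 and 9.30 in mock roots. Osmotic arrays lay above all day 11 arrays but overlapped with mock, because of the value of 9.30 in mock root array 3. The difference of osmotic from mock roots was 0.55 ± 0.27 (95% interval -0.01 to 1.11, adjusted p = 0.15). With array weights in the fit, WRKY53 passed it (0.73 ± 0.21, adjusted p = 0.012). It fell by 0.84 ± 0.27 in day 11 against osmotic roots (adjusted p = 0.034). That fall missed the threshold without osmotic root array 2 or 3 (adjusted p = 0.076 and 0.13) or day 11 root array 1 or 2 (0.096 and 0.12). Day 11 roots differed from mock roots by -0.29 ± 0.27 (adjusted p = 0.57).

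Whether the organs responded differently was tested as an interaction, the root change minus the leaf change. For WRKY53 the mannitol response was smaller in roots (-1.35 ± 0.38, adjusted p = 0.021), and 15.4% of probe sets had a called difference. This call was lost without mock leaf array 2 (adjusted p = 0.065), mock root array 3 (0.06), osmotic leaf array 2 (0.057) or osmotic root array 1 (0.051). The same difference for STZ was 0.56 ± 0.27, with an interval of -0.00 to 1.12 (adjusted p = 0.18).

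The organs parted in the step from osmotic to day 11 for STZ. Its change was -1.26 in roots and 0.29 in leaves, a difference of -1.56 ± 0.27 (adjusted p = 0.00083) in a comparison that called 12% of probe sets, and the call held without any single array. For WRKY53 the changes of this step were -0.84 in roots and -0.73 in leaves, and their difference was -0.11 ± 0.38 with an interval of -0.90 to 0.68 (adjusted p = 0.9). At day 11 relative to mock, the root minus leaf difference was -0.996 ± 0.27 for STZ (adjusted p = 0.06) and -1.46 ± 0.38 for WRKY53 (adjusted p = 0.0496), with 2.29% of all probe sets called. Neither of these last results was stable. That of STZ passed with a replicate block (adjusted p = 0.013) or without mock root array 1 (0.045), osmotic leaf array 1 or 3 (0.04 and 0.043) or day 11 root array 3 (0.043). That of WRKY53 was lost on leaving out any 1 of 12 arrays, the exceptions being mock leaf array 1, mock root array 2, osmotic leaf arrays 1 and 2, day 11 leaf array 1 and day 11 root array 3. The adjusted p-values over all 18 omissions were 0.026 to 0.13.

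**Figure D2:**
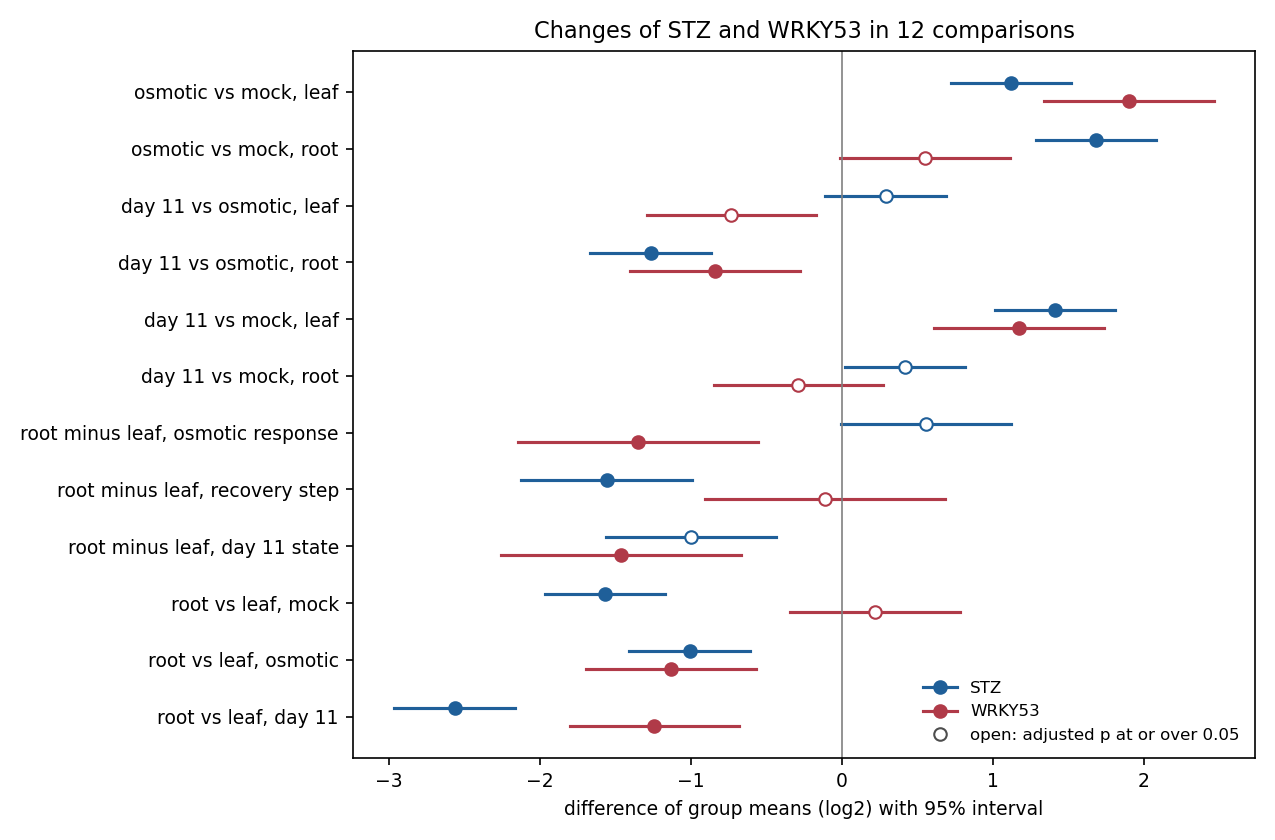
Differences of group means (log2, horizontal axis) with 95% intervals for STZ (blue) and WRKY53 (red) in 12 comparisons, filled where the adjusted p was below 0.05. In the recovery step STZ stands at -1.26 in roots and 0.29 in leaves, and WRKY53 at -0.84 and -0.73.

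Levels in the organs differed too. STZ was lower in roots than in leaves in every state, with a root minus leaf difference of -2.56 ± 0.19 at day 11 (adjusted p = 6.9e-10), -1.01 ± 0.19 under mannitol (adjusted p = 0.00015) and -1.57 ± 0.19 in mock plants (adjusted p = 7.4e-07). No root array reached a leaf array of the same state. WRKY53 was lower in roots at day 11 (-1.24 ± 0.27, adjusted p = 0.00053) and under mannitol (-1.13 ± 0.27, adjusted p = 0.0013), whereas in mock plants its difference was 0.22 ± 0.27 (95% interval -0.34 to 0.78, adjusted p = 0.51). Organ differences were common, with 58.5% of probe sets called at day 11, 55.9% under mannitol and 56.5% in mock plants.

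Ordered by mean, STZ was highest in day 11 leaves (11.52 ± 0.28, SD, n = 3 in every group), then osmotic leaves (11.23 ± 0.35), osmotic roots (10.23 ± 0.16), mock leaves (10.11 ± 0.22), day 11 roots (8.96 ± 0.23) and mock roots (8.54 ± 0.30). The 6 groups fell into 3 levels of 2 groups each: arrays of neighbours overlapped within a level and not between levels. Osmotic roots and mock leaves shared the middle level, with a gap of 0.12 between their means. The order of WRKY53 was osmotic leaves (10.51 ± 0.56), day 11 leaves (9.78 ± 0.38), osmotic roots (9.38 ± 0.25), mock roots (8.83 ± 0.42), mock leaves (8.61 ± 0.38) and day 11 roots (8.54 ± 0.23). Arrays of all neighbours in that order overlapped.

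The signed changes of both genes were compared through the difference of their values within each array, STZ minus WRKY53. This difference was higher in osmotic than in mock roots by 1.13 ± 0.22, where both genes had positive changes. It was higher in day 11 than in osmotic leaves by 1.02 ± 0.25, where STZ had 0.29 and WRKY53 had -0.73 and neither was called. For osmotic against mock leaves it was -0.78 ± 0.32, and for day 11 against osmotic roots -0.43 ± 0.13. The arrays of the groups compared did not overlap in any of these 4 comparisons, and each two-sided exact permutation p was 0.1, the smallest that 3 arrays against 3 can give, so none can pass 0.05 and unequal changes were not shown.

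**Figure D3:**
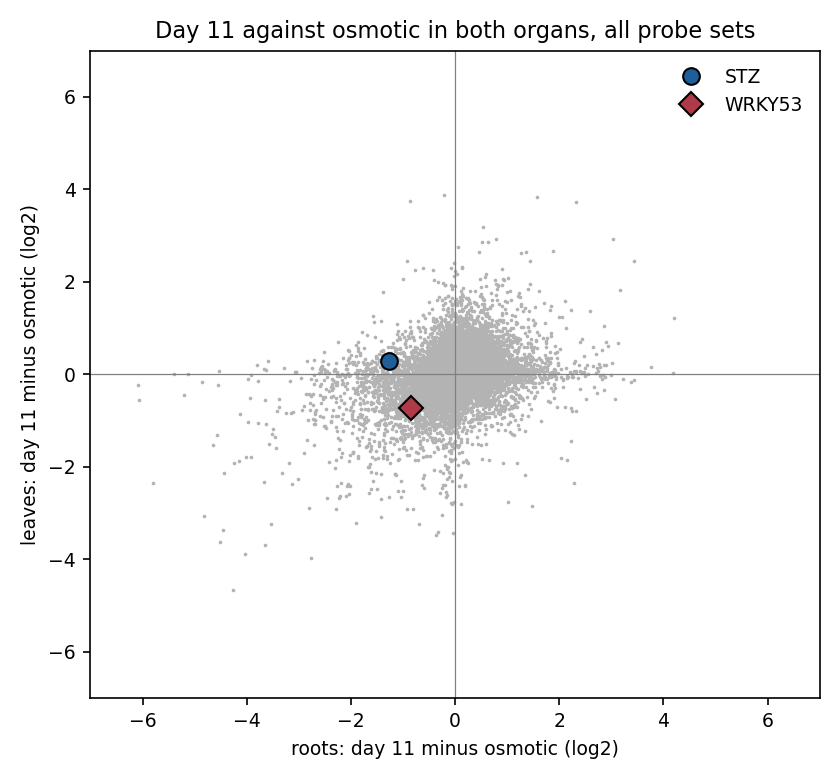
Day 11 minus osmotic differences (log2) in roots (horizontal axis) and leaves (vertical axis) for all 22746 probe sets in grey, with STZ at -1.26 and 0.29 (blue circle) and WRKY53 at -0.84 and -0.73 (red diamond). WRKY53 lies in the lower left part, where both organs are lower at day 11, and STZ to the left of the middle, lower in roots and with no called change in leaves.

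Relatives of both genes were taken from lists of their families. Of 12 listed zinc fingers of the STZ subgroup, 4 were paired with a probe set of their own, STZ among them, and the reference table gives the other 3 by locus only. In osmotic against mock roots, where 24.3% of all probe sets were called, all 4 passed: STZ rose, AT3G53600 rose by 0.80 ± 0.16, AT2G28200 fell by 0.65 ± 0.22 and AT2G28710 fell by 1.14 ± 0.21 (list median 0.07, against -0.01 for all probe sets). In osmotic against mock leaves 2 of 4, STZ and AT3G53600, passed (0.50 ± 0.16 for that locus), beside 20.6% of all probe sets, with a list median of 0.30 against -0.00. From osmotic to day 11 roots STZ and AT3G53600 fell, the locus by 0.93 ± 0.16, and AT2G28710 rose by 0.66 ± 0.21, beside 19% of all probe sets called and with a list median of -0.48 against 0.01. None of the 4 passed from osmotic to day 11 leaves, beside 17.1% of all probe sets (list median 0.39 against 0.02). AT3G53600 was called in the same direction as STZ wherever STZ was called in these 4 comparisons. In day 11 against mock leaves, outside these 4, STZ was called and AT3G53600 was not (adjusted p = 0.22). The other 2, AT2G28200 (adjusted p = 0.91) and AT2G28710 (0.21), were not called there either. The 1 call among the 4 zinc fingers was thus that of STZ itself, beside 1.09% of all probe sets. The list median of 0.50, against -0.00, also includes STZ. In the root minus leaf difference of the step from osmotic to day 11, AT3G53600 was called lower in roots, as STZ was. Its call (adjusted p = 0.017) held without any single array. They were the 2 of 4 zinc fingers called there, beside 12% of all probe sets, with a list median of -0.75 against -0.01. The group means of AT3G53600 in leaves, 3.62 to 4.12, lay at the dim end of the arrays, whose lower quartiles were 4.27 to 4.50.

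Several of these calls of relatives depended on 1 array. The leaf call of AT3G53600 was lost without mock leaf array 1 or 3 or osmotic leaf array 2 or 3 (adjusted p up to 0.12), which left 1 call in the list, and AT2G28200 passed there without mock leaf array 2 (0.023). The root call of AT2G28200 was lost without mock root or osmotic root arrays 2 or 3 (up to 0.13). The rise of AT2G28710 at day 11 was lost without any 1 osmotic root array or day 11 root array 1 or 2 (up to 0.14). In the leaf step, AT2G28200 passed without mock leaf array 2 or day 11 leaf array 2 (down to 0.017), and AT2G28710 without osmotic leaf array 3 (0.0082).

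Of 66 listed WRKY genes, 7 were paired with a probe set of their own. WRKY6, a regulator of senescence and phosphate responses, moved in both organs. Its means were 8.04 ± 0.18 in day 11 roots, 9.38 ± 0.30 in osmotic roots and 8.11 ± 0.27 in mock roots, and 6.37 ± 0.36 in day 11 leaves, 7.84 ± 0.43 in osmotic leaves and 6.40 ± 0.21 in mock leaves. WRKY6 rose under mannitol by 1.27 ± 0.22 in roots (adjusted p = 0.00028) and 1.44 ± 0.22 in leaves (adjusted p = 0.00018). At day 11 it stood at -0.07 ± 0.22 from mock in roots (adjusted p = 0.9) and -0.03 ± 0.22 in leaves (adjusted p = 0.97). Unlike STZ and WRKY53 it had no call above mock in day 11 leaves, although the difference between the genes was not tested.

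None of the other WRKY genes passed in osmotic leaves. WRKY53 and WRKY6 were the 2 of 7 that passed in osmotic against mock leaves, a count near the 20.6% called among all probe sets, with a list median of 0.11 beside -0.00. In roots WRKY6 rose, WRKY20 rose by 0.49 ± 0.11, and WRKY1 (ZAP1 in the reference table) fell by 0.42 ± 0.12 (3 of 7 beside 24.3% called, list median 0.21 beside -0.01). The fall of WRKY1 was lost without mock root array 1 or osmotic root array 3 (adjusted p up to 0.059). From osmotic to day 11 roots WRKY53, WRKY6 and WRKY20 fell (3 of 7 beside 19% called, list median -0.21 beside 0.01). From osmotic to day 11 leaves WRKY6 fell by 1.48 ± 0.22, WRKY1 fell by 0.37 ± 0.12, and WRKY22, which acts in defence and dark-induced senescence, rose by 1.02 ± 0.32 (3 of 7 beside 17.1% called, list median -0.01 beside 0.02). The WRKY1 call was lost without any 1 osmotic leaf array or day 11 leaf array 2 or 3 (adjusted p up to 0.11), and that of WRKY22 without osmotic leaf array 1 or 2 or day 11 leaf array 2 or 3 (up to 0.18). WRKY42 and WRKY47 passed in none of these 4 comparisons, but the group means of WRKY42, 3.65 to 4.40, lay at the dim end of the arrays. WRKY53 was the 1 measured of 13 listed group III WRKY genes, and no gene from a list of 27 other stress transcription factors or one of 14 genes of MAP kinase and jasmonate signalling was analysed here. The pairing covered 13436 of 22746 probe sets and 23 of 166 listed genes, so listed genes may be among the probe sets with no name here.

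Of 24 genes listed for senescence and the surroundings of WRKY53, WRKY6, WRKY22, SAG101 and SAG29 were measured. SAG29, the sugar transporter SWEET15, rose by 1.78 ± 0.33 in osmotic against mock leaves (adjusted p = 0.00083) and fell by 1.09 ± 0.33 at day 11 (adjusted p = 0.027), a fall lost without osmotic leaf array 1 or 2 or day 11 leaf array 2 or 3 (up to 0.18). In osmotic against mock roots it stood at 0.66 ± 0.33 (adjusted p = 0.16; 0.032 without osmotic leaf array 3). SAG101, a lipase-like protein of senescence and immunity, stood at 0.46 ± 0.19 in osmotic against mock leaves (adjusted p = 0.093), where it passed without the first array of mock or of osmotic leaves (down to 0.0026), and at -0.31 ± 0.19 in roots (adjusted p = 0.26).

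Of 14 genes listed around STZ, the cold- and drought-induced COR15A and COR47 were measured. COR47, a dehydrin, rose by 1.03 ± 0.13 in osmotic against mock roots and 1.33 ± 0.13 in leaves, and it fell at day 11 by 1.38 ± 0.13 in roots and by 1.74 ± 0.13 in leaves. COR15A, a chloroplast protective protein, rose by 2.06 ± 0.23 in osmotic leaves and fell by 2.13 ± 0.23 at day 11 (adjusted p = 7e-06), while its level in roots, with means of 4.23 to 4.52, lay at the dim end of the arrays. In day 11 against mock leaves COR15A stood at -0.08 ± 0.23 (adjusted p = 0.92) and COR47 at -0.42 ± 0.13 (adjusted p = 0.15), beside the rise of 1.41 ± 0.19 of STZ.

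Touch-inducible genes were listed because moving plants between media also touches them, and 3 of 6 were measured: the calmodulin-like genes CML37, CML38 and CML39 (AT1G76640). All 3 rose in osmotic against mock roots, by 2.26 ± 0.35, 2.46 ± 0.33 and 1.74 ± 0.23, and all 3 fell in day 11 against osmotic roots (-2.35 ± 0.35, -2.24 ± 0.33 and -1.46 ± 0.23). Beside them, 24.3% and 19% of all probe sets were called, and the list medians were 2.26 and -2.24 against -0.01 and 0.01 for all probe sets. CML37 had means of 4.39 in day 11 roots and 4.47 in mock roots, at the dim end of the arrays. In osmotic leaves all 3 rose, by 0.70 to 1.24 (20.6% of all probe sets called, list median 1.02 against -0.00), but none passed without mock leaf array 2, and 1 passed without mock leaf array 3 or osmotic leaf array 2 or 3. None passed from osmotic to day 11 leaves (1 did without osmotic leaf array 3, beside 17.1% of all probe sets called, list median -0.30 against 0.02). CML38 was above mock in day 11 leaves by 1.72 ± 0.33 (adjusted p = 0.015), a call lost without mock leaf array 1 or day 11 leaf array 2 (up to 0.08). CML37 (adjusted p = 0.21) and CML39 (0.67) were not called in that comparison. It called 1.09% of all probe sets, and the list median was 0.94 against -0.00. The root minus leaf difference of the step from osmotic to day 11 was called lower in roots for CML37 (adjusted p = 0.0095) and CML38 (0.00041). Both calls held without any single array, while CML39 was not called (0.05003). This was 2 of 3 beside 12% of all probe sets, with a list median of -2.05 against -0.01, and STZ was called in the same direction. Beside these values, the part of handling in the changes of STZ and WRKY53 was not tested.

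**Figure D4:**
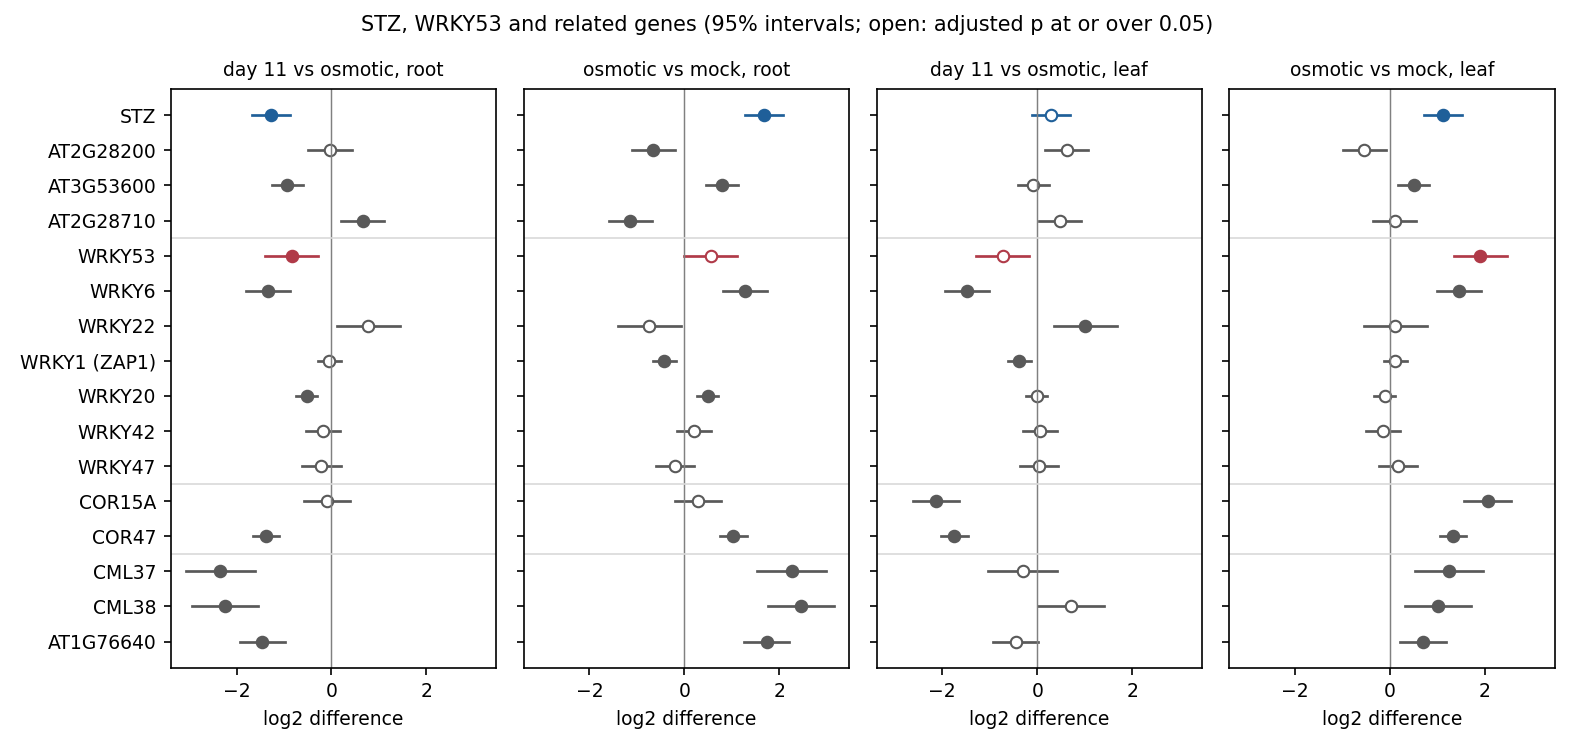
Log2 differences with 95% intervals for STZ (blue), WRKY53 (red) and related genes (grey) in 4 comparisons, filled where the adjusted p was below 0.05, with blocks from top to bottom for zinc fingers, WRKY genes, COR genes and touch-inducible genes. In the third panel, day 11 against osmotic leaves, COR15A, COR47 and WRKY6 lie well below 0, and STZ at 0.29.

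Genes with a profile most like each member were named by Pearson correlation over the 18 arrays, among 4257 genes whose highest group mean was above 6.61 and whose group means ranged over at least 1. These points share organ and treatment, and the correlations are given as a description. A like profile of the genes named follows from this choice. For STZ the closest were AT3G56880 (r = 0.98), AT1G72940 (0.96), AT4G27652 (0.96), AT5G64870 (0.95) and AT4G27654 (0.95), and 52 genes had r above 0.9. AT4G27654 had means of 4.06 in day 11 roots, 5.14 in osmotic roots and 3.70 in mock roots, and of 8.52 in day 11 leaves, 7.71 in osmotic leaves and 6.03 in mock leaves. Its means in day 11 and mock roots lay at the dim end of the arrays, whose lower quartiles were 4.27 to 4.50. As with STZ, its highest mean was that of day 11 leaves, which also held for the other 4. The step from osmotic to day 11 leaves was, however, not called for AT4G27654 (adjusted p = 0.17) or for the other 4 (0.22 to 0.69).

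For WRKY53 only 4 genes had r above 0.9. The closest were AT2G32030 (r = 0.93), AT2G27310 (0.93), AT3G09830 (0.92), ZCF37 (AT1G59590, 0.90) and AT5G39020 (0.89). Each had its highest mean in osmotic leaves, such as 9.58 for AT3G09830, beside 8.69 in day 11 and 8.35 in mock leaves. STZ and WRKY53 correlated with each other at r = 0.77.

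**Figure D5:**
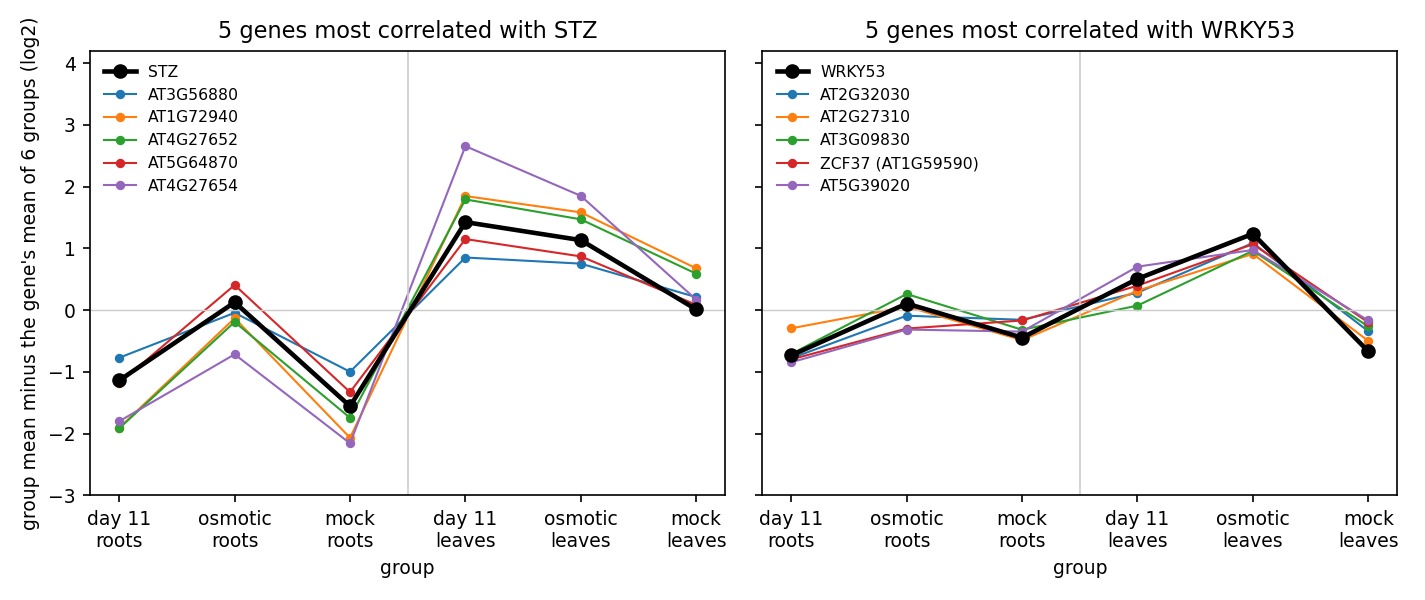
Group means minus each gene's own mean over the 6 groups (log2, vertical axis) for STZ (left, black) and WRKY53 (right, black) with the 5 most correlated genes of each in colour, by group along the horizontal axis. The means are highest in day 11 leaves on the left and in osmotic leaves on the right. The genes were picked by correlation over these same arrays, so a like profile follows from the choice.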

How the data were processed

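The authors deposited 1 table of log2 expression values for 22810 probe sets on 18 arrays. Per the labels' protocols, probes were made from 1 µg of total RNA and hybridised after the manufacturer's manual. The summarisation and normalisation were not given in the sources used here, and the log base was read from the range of 2.38 to 13.86. Without the 64 control probe sets, 22746 remained, and 13436 of them were paired with 1 gene by the platform annotation and the RefSeq gene table. Where a gene had several probe sets, that with the highest mean was used. Groups came from the sample titles. A model of 6 group means was fitted with limma 3.58.1 (lmFit, eBayes with a trend) in R 4.3.3 and was checked on simulated data. Differences between STZ and WRKY53 used an exact permutation test over arrays. The number of arrays limits the precision, and the median SD within groups was 0.124 to 0.174.

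The members, lists (23 of 166 genes measured) and tests were chosen with earlier results of these data known. All measured zinc finger and WRKY genes could be named, up to 4 called and 2 other genes per further list and comparison, and the 5 most correlated genes of each member. Replicate numbers were checked for pairing by correlating the deviations of arrays from their group means over all probe sets. For same-numbered arrays these correlations ran from -0.29 to 0.35 over 6 comparisons. In 0 comparisons was every pair above 0.1, so the numbers were not used as a block. In day 11 against mock leaves, however, each of the 3 day 11 arrays correlated best with its own number (0.06 to 0.35). Protein and promoter sequences were not used here. Alternatives were other normalisations, centring, a filter on dim probe sets, no trend, array weights, fewer groups in the fit, a replicate block and the omission of each array.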

Additional observations from a re-analysis of the deposited data

Results flagged for a closer look

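Groups of 3 arrays are too small for an outlier test, so only differences between the organs were screened, by the interaction of the limma fit. The step from osmotic to day 11 of STZ was lower in roots than in leaves (-1.56, adjusted p = 0.00083): all 3 day 11 root arrays lay below all osmotic root arrays, and leaf arrays of both states overlapped. The mannitol response of WRKY53 was lower in roots (-1.35, adjusted p = 0.021), with every osmotic leaf array above every mock leaf array and an overlap in roots. The day 11 difference from mock of WRKY53 was also lower in roots (-1.46, adjusted p = 0.0496). Both results of WRKY53 use the same mock arrays. Of 18 omissions of 1 array, 4 lost the call of its mannitol response and 12 that of its day 11 difference.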

How the results depend on the processing

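In the 24 changes of STZ and WRKY53, 161 of 168 values under other settings and 394 of 432 values with 1 array left out kept their direction and their side of the threshold. The root minus leaf difference at day 11 of STZ passed when each array was centred on its median (-0.98, adjusted p = 0.0496), with array weights (-0.93, 0.029), with only the groups compared in the fit (-0.996, 0.043) and with the replicate block (-0.996, 0.013), a block that rests on shared numbers alone and changed no other call of either gene. For WRKY53 the same difference was lost without the variance trend (-1.46, adjusted p = 0.062), day 11 against mock leaves was lost with only those groups in the fit (1.17, 0.072), and osmotic against mock roots passed with array weights (0.73, 0.012). With 1 array left out, calls moved for the day 11 organ difference of STZ (-1.15 to -0.84) and, for WRKY53, for day 11 against mock leaves (0.96 to 1.35), day 11 against osmotic leaves (-1.03 to -0.48) and roots (-0.97 to -0.71), and the organ differences of the mannitol response (-1.65 to -1.10) and of day 11 (-1.64 to -1.22). The uncalled root minus leaf difference of WRKY53 turned to -0.016 in mock plants without mock root replicate 3 (range -0.016 to 0.39), and that of its recovery step to 0.19 without osmotic leaf replicate 1, 0.02 without osmotic root replicate 3 and 0.09 without day 11 leaf replicate 2 (range -0.36 to 0.19). The cause was not tested. The 4 differences between both genes kept their direction. In their deviations from group means, all arrays correlated best with their own number in 1 of 6 comparisons, day 11 against mock leaves. Counts of called probe sets moved by over 1.5 times in day 11 against mock leaves (248, between 92 and 1515 over all settings), day 11 against mock roots (1741, 790 to 3423), the day 11 organ difference (520, 250 to 1274), osmotic against mock leaves (4694, 3048 to 5271) and day 11 against osmotic leaves (3888, 1795 to 4065). Of the 5 genes most like STZ, 2 stayed with a correlation over group means and 2 with Spearman's, and of those most like WRKY53, 2 and 3.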

Other observations

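The values of STZ and WRKY53 lay on the same side of their group means on 15 of 18 arrays. Deviations within a group are not independent, and this count was not made for other pairs of genes. Replicate 1 was below the group mean of STZ in 6 of 6 groups and of WRKY53 in 5 of 6, while replicate 3 was below it in 1 of 6 groups for each gene. Of all probe sets, 2.4% had replicate 1 below the group mean in every group, 0.818% replicate 2 and 2.04% replicate 3.

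The locus next to WRKY53 in the order of protein-coding genes of the RefSeq gene table, AT4G23820, moved the other way in leaves. It fell by 2.104 ± 0.21 in osmotic against mock leaves (adjusted p = 2.7e-06) and rose by 1.89 ± 0.21 in day 11 against osmotic leaves (adjusted p = 8.2e-06), and it fell by 0.81 ± 0.21 in osmotic against mock roots (adjusted p = 0.0086). On the other side, AT4G23800 (3xHMG-box2) stood at 0.28 ± 0.19 in osmotic against mock leaves (adjusted p = 0.33) and at -0.17 ± 0.19 in roots (adjusted p = 0.55). In day 11 against osmotic plants it rose by 0.73 ± 0.19 in roots (adjusted p = 0.0083) and fell by 0.83 ± 0.19 in leaves (adjusted p = 0.0046), while AT4G23820 stood at 0.49 ± 0.21 in roots (adjusted p = 0.12). These neighbours were looked at after the values of WRKY53 were seen. AT4G27652 and AT4G27654, both among the 5 genes most like STZ, are neighbours in the same order. The protein-coding loci on both sides of STZ, TAF4B and RSL4, were looked up and were paired with no probe set of their own in the annotation used.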
